A study of Mus musculus with 48 samples.

Results

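The terminal ileum was compared with the proximal duodenum of mice at postnatal day 2 by RNA sequencing, with 3 samples per region, 6 of the 48 samples of a series that runs from birth to 4 weeks. The 6 samples were taken by their labels for region and age, and not by any measured value. All came from wild-type C57Bl/6J mice of both sexes that received no treatment, were still with the dam and were kept under what the labels call standard germ-free conditions. The duodenum samples were the first 2 cm of intestine after the pylorus and the ileum samples the last 2 cm before the ileocecal junction, each extracted as whole tissue. The labels number the samples of each group 1 to 3 and do not state that they came from separate animals. Every p-value below therefore rests on the spread between samples, not on a known spread between animals. In the main fit that spread was estimated jointly from 40 samples in 14 groups by region and age. It was not estimated from the 6 day 2 samples alone.

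The small intestine is patterned along its length before birth, and its ends take up different nutrients once milk arrives. The duodenum receives pancreatic juice, bile and gastric contents and is a main site of iron, folate, calcium and fat uptake. The ileum recovers bile acids and, in suckling rodents, takes up intact milk protein into large lysosomal vacuoles of its enterocytes. In bulk tissue, fewer cells of a type and less RNA per cell cannot be told apart.

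The libraries held 21026015 to 46692201 estimated counts, with the 3 duodenum libraries deeper than the 3 ileum libraries. Levels are given as CPM, counts per 1000000 scaled by edgeR's trimmed mean of M values, always in the order of samples 1, 2 and 3. Rank correlations over 12436 genes were 0.993 to 0.996 within the duodenum, 0.988 to 0.990 within the ileum and 0.952 to 0.972 between regions. Sample 1 of each region carried Xist, the RNA that coats the inactive X chromosome, at 1069 CPM in the duodenum and 1496 CPM in the ileum. Samples 2 and 3 of both regions instead carried the Y-linked Ddx3y at 44.6 to 55.3 CPM, so the sexes were divided alike between the regions. Epithelial markers were abundant in all 6 libraries, with a median of 200 CPM per kb of exon for 8 genes. By contrast, the 10 smooth muscle genes had a median of 1.24 CPM per kb, although the labels describe the whole thickness of the gut. Their range ran from 0.106 to 30.0 CPM per kb, and the highest, Mylk, encodes a kinase that is also made outside muscle.

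Duodenum sample 1 stood apart. The 19 listed genes of pancreatic acinar cells, which make the digestive enzymes, summed to 828 CPM in that sample, 54.3 and 32.5 CPM in duodenum samples 2 and 3, and 30.2, 25.3 and 20.5 CPM in the ileum. Carboxyl ester lipase, Cel, read 109, 2.05 and 0.0394 CPM in the duodenum and had no read in any ileum sample. Of the 17 acinar genes that passed the low-count filter, 15 were called higher in the duodenum with all 6 samples and 0 without duodenum sample 1. Acinar genes are therefore not read as regional differences here, but they remain in the counts of all called genes given below. Counts of list members that moved by more than 1.5 times without that sample are given both ways. Fgb, Tmprss15 and the other genes named at the top of each direction kept their call when it was left out. Duodenum sample 1 was also the only duodenum library with high Xist. Fits without it therefore no longer divide the sexes alike between the regions.

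**Figure D1:**
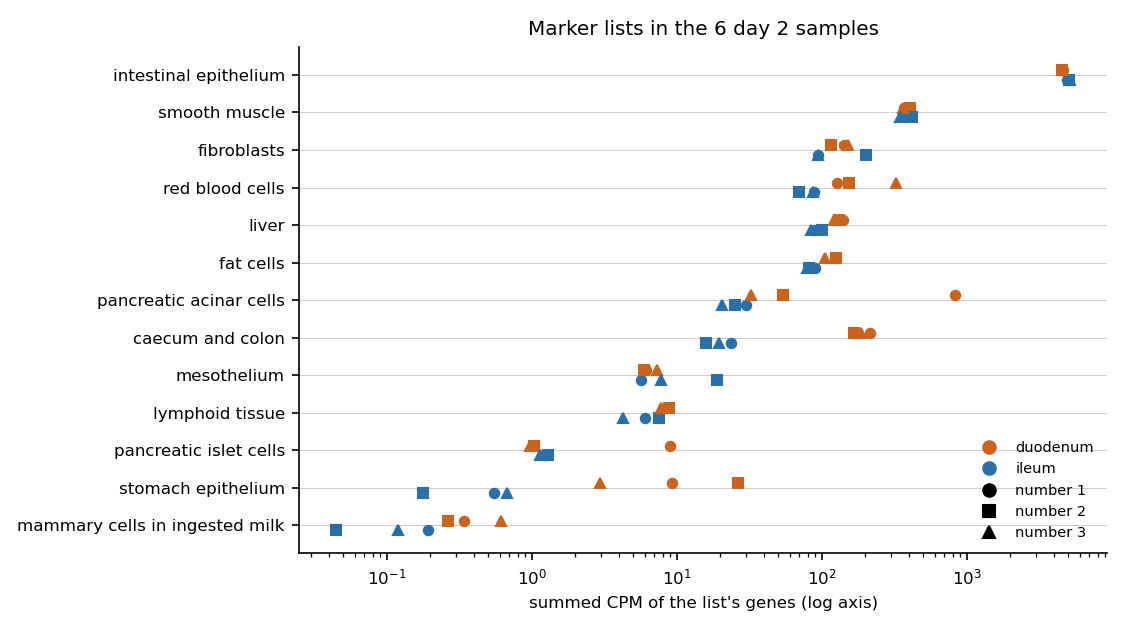
Summed level of each marker list, in CPM on a log axis, in each of the 3 duodenum samples (orange) and 3 ileum samples (blue), with the marker shape giving the sample number. Duodenum sample 1 stands at 828 CPM for the pancreatic acinar list while the other 5 samples lie between 20.5 and 54.3 CPM, and the stomach list is above the ileum in all 3 duodenum samples.

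The 2 regions differed at 2903 of 21617 genes tested, or 13.4%, at an adjusted p under 0.05 in edgeR's quasi-likelihood test. The ileum had the higher level at 1647 of them (7.62% of those tested) and the duodenum at 1256 (5.81%). A difference of more than 2-fold was called for 642 genes toward the ileum and 568 toward the duodenum, and the median log2 difference over all genes tested was 0.03. Protein-coding genes made up 1449 of the calls in the ileum and 1168 of those in the duodenum. The 3 ileum values did not overlap the 3 duodenum values at 8897 genes, or 41.2% of those tested. Without duodenum sample 1 the test called 2009 genes, or 9.3% of 21599, of which 824 were toward the duodenum, and the count moved by more than 1.5 times without duodenum sample 3 (1811 genes) and without ileum sample 2 (1578 genes).

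**Figure D2:**
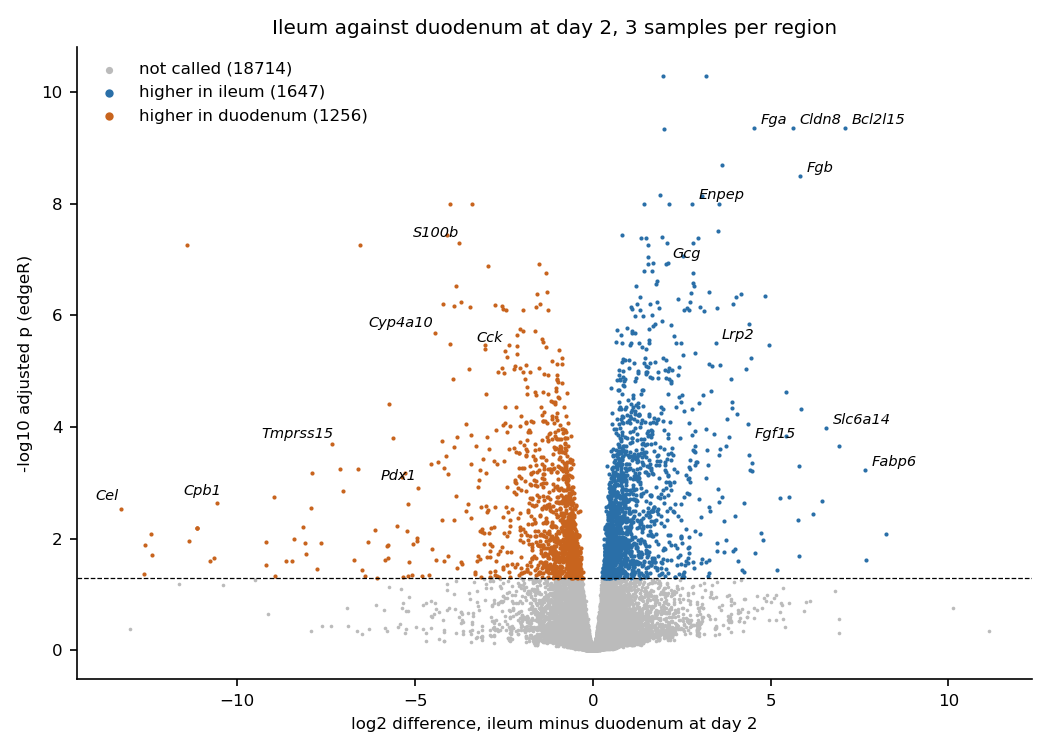
Each point is a gene, with the log2 difference between ileum and duodenum at day 2 on the horizontal axis and the -log10 adjusted p from edgeR on the vertical axis. The 1647 genes called toward the ileum are blue and the 1256 called toward the duodenum are orange; the dashed line marks an adjusted p of 0.05, and the points farthest to the left are pancreatic genes such as Cel and Cpb1.

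The genes with the largest differences toward the ileum encoded secreted plasma proteins of the fetal liver type, a tight junction protein, a bile acid hormone, a carrier and a lipid enzyme, among others. They were taken from called genes whose samples do not overlap between the regions, so that separation is part of the choice and not a further result. Bcl2l15, a member of the Bcl2 family, had 0.198, 0.244 and 0.0591 CPM in the duodenum against 26.6, 20.7 and 21.1 CPM in the ileum. The regions were far apart and the ileum samples close together, for a 137-fold difference (log2 7.10, SE 0.54, edgeR adjusted p = 4.51e-10). Cldn8, a claudin of tight junctions, had 1.84, 3.09 and 1.68 CPM in the duodenum and 86.3, 137 and 104 CPM in the ileum. The ileum was 49.3-fold higher (log2 5.62, SE 0.42, edgeR adjusted p = 4.51e-10). Afp, which encodes alpha-fetoprotein, the major serum protein of the fetus, had 26.9, 28.8 and 22.4 CPM in the duodenum and 433, 1116 and 712 CPM in the ileum. The ileum samples of Afp varied among themselves by more than the duodenum samples did, yet all lay far above them (28.9-fold, log2 4.85, SE 0.54, edgeR adjusted p = 4.43e-07).

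Lower in the same ranking came Slc5a8, a sodium-coupled carrier of short-chain fatty acids and lactate, at 1.13, 0.974 and 1.54 CPM in the duodenum and 16.6, 38.7 and 26.4 CPM in the ileum. Anxa8, an annexin that binds phospholipids in the presence of calcium, had 0.339, 0.629 and 0.512 CPM in the duodenum and 5.46, 16.8 and 9.73 CPM in the ileum. Scd2, a stearoyl-CoA desaturase that makes monounsaturated fatty acids, had 14.03, 12.4 and 12.6 CPM in the duodenum and 102, 342 and 159 CPM in the ileum. For these 3 genes ileum sample 1 was the lowest and ileum sample 2 the highest of the ileum, and the fitted differences were 22.2-fold, 21.1-fold and 15.5-fold (edgeR adjusted p = 0.000626, 1.45e-06 and 6.31e-07). Cldn8 and Afp had this order in the ileum too. The summed mesothelial markers followed it as well, at 5.68, 19.0 and 7.79 CPM in the ileum, and were 6.10, 5.93 and 7.33 CPM in the duodenum. Among the 10 genes with the largest difference toward the duodenum, Cym, Cyp4a10, Ada, Zg16, Adh6a, Mme and C8b had the reverse order in the ileum. For Mme the ileum samples had 95.7, 27.1 and 59.7 CPM. Tmprss15, Pdx1 and Lypd1 did not have the reverse order. What set these orders, and the part of mesothelial RNA in the genes higher in the ileum, was not tested. Greb1l, also among the 10 largest, rested on 1 library. It had 1.47, 1.26 and 2.56 CPM in the duodenum and 94.8, 2.59 and 3.09 CPM in the ileum. Its log2 difference of 4.24 became 0.65 without ileum sample 1 (edgeR adjusted p = 0.597), and its call was also lost with the replicate block.

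The fibrinogen genes are neighbours on chromosome 3 (mm10: Fgg at 83007724 to 83015049 and Fga at 83026076 to 83033627, both on the plus strand, and Fgb at 83040141 to 83049863 on the minus strand). They encode the 3 chains of the clotting protein, which the adult liver secretes. Fga had 0.762, 1.87 and 1.42 CPM in the duodenum and 25.6, 40.2 and 29.8 CPM in the ileum, a 23.2-fold difference (log2 4.53, SE 0.35, edgeR adjusted p = 4.51e-10). Fgb had 0.0847, 0.589 and 0.512 CPM in the duodenum and 19.6, 27.3 and 24.3 CPM in the ileum, a 56.8-fold difference (log2 5.83, SE 0.47, edgeR adjusted p = 3.23e-09). Both were high in every ileum sample. Fgg, whose chain completes the protein, had 0.0282, 0.0406 and 0.138 CPM in the duodenum and 0.549, 0.805 and 0.475 CPM in the ileum, on 10 and 47 reads (log2 3.02, SE 0.76, edgeR adjusted p = 0.00827). Alb, the defining transcript of hepatocytes, was at 0.365 CPM or less in all 6 samples, and Serpina1a, another gene of the 8 liver markers, was higher in the duodenum (138, 127 and 118 CPM against 41.4, 30.4 and 28.9 CPM).

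The start regions of the fibrinogen genes and of Afp are shown because these genes were high together in the ileum, with that of Tmprss15, the gene with the largest difference toward the duodenum, for contrast. Each runs from 250 bases before to 50 bases after the start of the gene, 5′ to 3′ on the strand of the gene, as given by RefSeq for GRCm38.p6 (mm10). For Fga and Afp the RefSeq start differs from the GENCODE start, 83026076 for Fga and 90490737 for Afp. The gene positions in the text are those of GENCODE. Capitals mark the letters GTTAAT, searched on both strands, which reads ATTAAC where it lies on the opposite strand.
Fga (chr3:83025903-83026202, plus strand): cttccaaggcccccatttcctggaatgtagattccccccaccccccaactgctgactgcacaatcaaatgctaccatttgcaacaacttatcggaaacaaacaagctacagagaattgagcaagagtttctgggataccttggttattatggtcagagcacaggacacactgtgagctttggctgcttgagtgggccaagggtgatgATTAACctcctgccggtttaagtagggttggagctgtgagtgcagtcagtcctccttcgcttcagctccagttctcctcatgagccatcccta
Fgb (chr3:83049814-83050113, minus strand): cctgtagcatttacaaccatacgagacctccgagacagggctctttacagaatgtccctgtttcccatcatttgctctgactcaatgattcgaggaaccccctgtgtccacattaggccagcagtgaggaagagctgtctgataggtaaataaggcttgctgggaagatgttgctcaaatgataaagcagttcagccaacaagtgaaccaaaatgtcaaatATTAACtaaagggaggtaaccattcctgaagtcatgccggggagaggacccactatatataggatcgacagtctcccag
Fgg (chr3:83007474-83007773, plus strand): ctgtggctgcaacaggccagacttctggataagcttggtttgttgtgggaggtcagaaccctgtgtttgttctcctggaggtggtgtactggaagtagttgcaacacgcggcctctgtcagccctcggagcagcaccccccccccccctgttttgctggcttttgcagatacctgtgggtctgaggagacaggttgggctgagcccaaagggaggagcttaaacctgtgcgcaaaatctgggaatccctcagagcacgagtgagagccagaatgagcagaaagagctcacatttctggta
Afp (chr5:90490464-90490763, plus strand): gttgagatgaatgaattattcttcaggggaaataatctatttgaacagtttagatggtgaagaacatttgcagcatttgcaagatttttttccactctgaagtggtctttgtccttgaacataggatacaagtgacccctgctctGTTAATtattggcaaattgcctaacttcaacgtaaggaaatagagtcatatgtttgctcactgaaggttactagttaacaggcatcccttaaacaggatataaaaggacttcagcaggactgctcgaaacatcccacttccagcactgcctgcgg
Tmprss15 (chr16:79091048-79091347, minus strand): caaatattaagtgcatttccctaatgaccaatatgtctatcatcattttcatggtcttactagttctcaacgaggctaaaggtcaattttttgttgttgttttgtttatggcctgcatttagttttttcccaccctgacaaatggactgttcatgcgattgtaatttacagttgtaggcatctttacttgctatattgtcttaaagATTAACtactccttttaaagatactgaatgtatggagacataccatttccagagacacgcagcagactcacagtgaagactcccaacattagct
The letters began at -43 in Fga, -29 in Fgb, -105 in Afp and -44 in Tmprss15, counted from the RefSeq start of each gene. These letters were not in the window of Fgg, and in Fga they lay after the GENCODE start. They are found in 7.1% of 32851 mouse promoter windows of the same length, and here in genes higher in either region. Of 5 other motifs searched on both strands, the promoter box TATAAA (in 13.6% of windows) was found in Afp at -7. The CDX motif TTTATG (11.9%) was found in Tmprss15 at -146. The motif of GATA factors, AGATAA (11.2%), the motif of HNF4, CAAAGTCCA (0.475%), and the inverted repeat of the FXR site (0.0396%) were not in these 5 windows.

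The genes with the largest differences toward the duodenum encoded proteases of the gut lumen and brush border, a patterning factor and enzymes of fatty acid, alcohol and purine metabolism. These too were taken from called genes whose samples do not overlap, so their separation by sample follows from the choice. Tmprss15 (chromosome 16, mm10, 78953008 to 79091097, minus strand) encodes enteropeptidase, which activates pancreatic trypsinogen. It had 80.2, 34.2 and 62.0 CPM in the duodenum and 0.194, 0.224 and 0.673 CPM in the ileum, a 162-fold difference (log2 -7.34, SE 1.25, edgeR adjusted p = 2e-04). Every duodenum sample was far above every ileum sample. Mme, the brush border endopeptidase neprilysin, had 1319, 888 and 1008 CPM in the duodenum and 95.7, 27.1 and 59.7 CPM in the ileum (17.6-fold, log2 -4.14, SE 0.75, edgeR adjusted p = 0.000334). Sample 1 was the highest of its region for Mme in both regions, as was sample 1 of the duodenum for Tmprss15.

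Cym, which encodes chymosin, the milk-clotting protease of the stomach, had 327, 392 and 257 CPM in the duodenum and 12.7, 3.89 and 7.99 CPM in the ileum (39.3-fold, edgeR adjusted p = 0.00066). Stomach markers were also present in the duodenum, whose piece began at the pylorus. The 9 stomach genes summed to 9.32, 26.3 and 2.94 CPM in the duodenum and to 0.549, 0.179 and 0.673 CPM in the ileum. Of the 6 that passed the filter, 2 were called higher in the duodenum, Pgc and Gkn3, with and without duodenum sample 1, and 4 with the replicate block. Pgc, which encodes a gastric pepsinogen, had 1.02, 5.18 and 0.335 CPM in the duodenum and no read in the ileum, at least 59.6-fold higher against a floor of 3 reads over the group. The stomach sum was highest in duodenum sample 2, as was Cym, and the part of stomach RNA in the Cym result was not tested.

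The remaining genes among the 10 largest included a patterning factor, a complement protein and metabolic enzymes. Pdx1, the homeobox factor of duodenum and pancreas, had 13.98, 11.8 and 11.7 CPM in the duodenum and 0.355, 0.536 and 0.356 CPM in the ileum (30.2-fold, edgeR adjusted p = 0.00123). Its level in duodenum sample 1 was close to that of samples 2 and 3, unlike the acinar genes. C8b, a chain of the membrane attack complex of complement, had 10.6, 10.1 and 9.46 CPM in the duodenum and 0.678, 0.536 and 0.633 CPM in the ileum (16.2-fold, edgeR adjusted p = 1e-08). Ada, adenosine deaminase, had 55.7, 28.5 and 30.5 CPM in the duodenum and 2.26, 1.52 and 2.22 CPM in the ileum (18.9-fold, edgeR adjusted p = 0.000178). Sample 1 was the highest of the duodenum for Ada, and its call held without it (edgeR adjusted p = 0.00122).

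Cyp4a10, which hydroxylates the end of fatty acid chains, was 21.6-fold higher in the duodenum (33.8, 23.0 and 28.7 CPM against 2.58, 0.536 and 0.673 CPM). Adh6a, an alcohol dehydrogenase, was 18.4-fold higher (13.9, 8.85 and 12.7 CPM against 0.969, 0.268 and 0.593 CPM). Both belong to families of near-identical genes among which reads can be split, so their single values are uncertain. Lypd1, a small protein of the Ly6 family, was 18.9-fold higher in the duodenum (14.9, 12.3 and 12.7 CPM against 1.19, 0.626 and 0.237 CPM). Zg16, a lectin of mucus, was 18.4-fold higher, and its duodenum samples at 64.9, 16.3 and 47.7 CPM spread more widely than those of Lypd1.

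**Figure D3:**
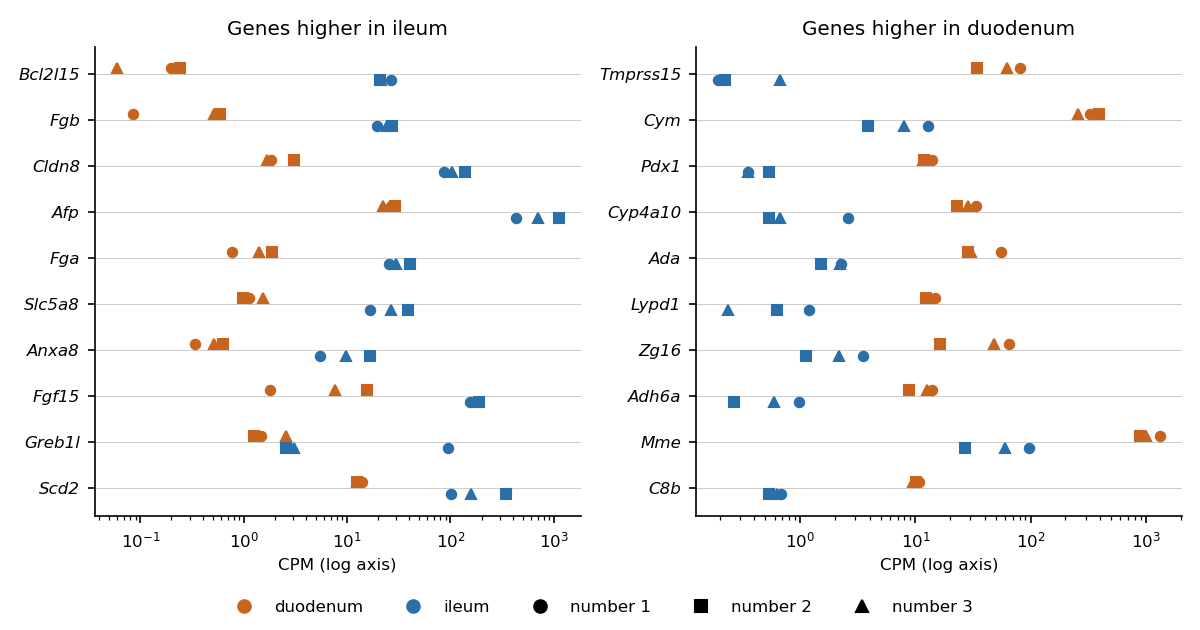
Level of the 10 genes with the largest difference toward each region, in CPM on a log axis, with 1 point per sample (orange for duodenum, blue for ileum, shape for sample number). The genes were chosen among those whose samples do not overlap, and Greb1l is high only in ileum sample 1 at 94.8 CPM, with the other 2 ileum samples at 2.59 and 3.09 CPM.

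Over all genes tested, 7.62% were called toward the ileum and 5.81% toward the duodenum, where a call toward a region means higher there. Each count of list members here and below stands beside those shares. Of the 2903 called genes only 40 overlapped between the regions, so lack of overlap adds little once a gene is called. Genes for bile acid handling were called in both directions. Of the 11 that passed the low-count filter of 12 listed, 6 were called toward the ileum and 1 toward the duodenum, with a median log2 difference of 0.83 against 0.03 for all genes tested. Fgf15 (chromosome 7, mm10, 144896531 to 144900953, plus strand), the hormone by which the ileum restrains bile acid synthesis in the liver, had 1.81, 15.6 and 7.63 CPM in the duodenum and 156, 189.9 and 178 CPM in the ileum (20.7-fold, log2 4.37, SE 0.70, edgeR adjusted p = 8.75e-05). The ileum samples were uniform and the duodenum samples were not. Fabp6, the intracellular bile acid carrier, had 4 reads in the duodenum in all and 7.20, 5.86 and 6.96 CPM in the ileum (edgeR adjusted p = 0.000599). Slc10a2, the apical transporter that takes up bile acids, was low in both regions at this age, at 0.339, 0.203 and 0.118 CPM in the duodenum and 0.614, 1.03 and 0.554 CPM in the ileum, and was not called (edgeR adjusted p = 0.207).

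On the export side, Slc51a, a chain of the basolateral bile acid exporter, had 125, 132 and 131 CPM in the duodenum and 238, 233 and 219 CPM in the ileum. Nr1h4, the bile acid receptor FXR, had 99.6, 107 and 105 CPM in the duodenum and 192, 205 and 184 CPM in the ileum. Both were less than 2-fold higher in the ileum, with tight samples in both regions (edgeR adjusted p = 0.00226 and 0.00217). Abcc2, an apical exporter of conjugates, was 3.84-fold higher in the ileum, at 2005, 2289 and 1847 CPM against 556, 561 and 482 CPM. Abcc3, its basolateral relative, was instead 3.76-fold higher in the duodenum (20.1, 14.2 and 13.2 CPM against 4.10, 5.41 and 3.13 CPM, edgeR adjusted p = 1.36e-05).

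Genes of the apparatus for protein uptake in the suckling gut came next. Of 17 receptors, adaptors and lysosomal enzymes, 10 were called toward the ileum and 1 toward the duodenum, with a median log2 difference of 0.88. Without duodenum sample 1 the count in the ileum was 7. Lrp2, the giant receptor megalin, had 8.67, 13.4 and 10.5 CPM in the duodenum and 103, 139.7 and 115 CPM in the ileum (10.95-fold, log2 3.45, SE 0.44, edgeR adjusted p = 3.1e-06). Cubn, the receptor cubilin, which works with megalin, was 2.45-fold higher at 1437, 1463 and 1638 CPM against 640.0, 608 and 606 CPM. Both receptors were separate between the regions in all samples.

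Lgmn, the lysosomal asparagine endopeptidase, had 476, 555 and 486 CPM in the duodenum and 1746, 2854 and 2201 CPM in the ileum (4.48-fold, edgeR adjusted p = 0.000987). Mamdc4, the apical endosomal glycoprotein of the suckling ileum, had 1332, 1438 and 1446 CPM in the duodenum and 2965, 3052 and 3141 CPM in the ileum. Its samples did not overlap, yet it was not called (log2 1.12, SE 0.50, edgeR adjusted p = 0.152). The SE rests on the spread over the 40 samples of the fit, and the fit with the replicate block called it (edgeR adjusted p = 0.000514). Fcgrt, the neonatal Fc receptor that carries milk antibody across the epithelium, was the member called higher in the duodenum, at 3345, 3133 and 3178 CPM against 1724, 1721 and 1461 CPM (edgeR adjusted p = 0.00772).

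Brush border peptidases were split between the ends. Of 12, 4 were called toward the ileum and 3 toward the duodenum, Tmprss15, Mme and Ggt1. Enpep, the aminopeptidase that removes acidic residues, had 104, 159 and 139 CPM in the duodenum and 880.2, 975 and 932 CPM in the ileum (6.94-fold, log2 2.79, SE 0.27, edgeR adjusted p = 1e-08). Naaladl1, a dipeptidase, had 105, 152 and 137 CPM in the duodenum and 919, 1120.4 and 1051 CPM in the ileum (7.85-fold, edgeR adjusted p = 3.71e-05). The ileum exceeded the duodenum in every sample of both genes. Among 12 amino acid and peptide transporters, 3 were called toward the ileum and 1 toward the duodenum, Slc7a7, which lost its call without each of 4 single samples, duodenum 1 (edgeR adjusted p = 0.0867), duodenum 2, ileum 2 and ileum 3. With the replicate block these counts were 4 and 2. Slc6a14, a concentrative carrier of neutral and basic amino acids, had 0.0565, 0 and 0.138 CPM in the duodenum, 9 reads in all, and 5.13, 9.66 and 5.22 CPM in the ileum (edgeR adjusted p = 0.000103). Slc1a1, a glutamate carrier, was 2.77-fold higher in the ileum.

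Genes for sugar handling were called in both directions. Of 12, 5 were called toward the duodenum and 1 toward the ileum, with a median log2 difference of -0.59, and 3 and 1 were called without duodenum sample 1. Treh, the brush border trehalase, had 10.9, 7.23 and 6.997 CPM in the duodenum and 0.743, 0.179 and 0.554 CPM in the ileum (16.1-fold, edgeR adjusted p = 3.29e-06). Slc2a5, the fructose transporter GLUT5, had 59.5, 43.9 and 47.5 CPM in the duodenum and 11.7, 12.1 and 11.6 CPM in the ileum (4.26-fold, edgeR adjusted p = 0.000552). Mgam, maltase-glucoamylase, went the other way, at 326, 317 and 323 CPM in the duodenum and 892, 854 and 977 CPM in the ileum (2.82-fold, edgeR adjusted p = 1.05e-05). Lct, the milk sugar enzyme lactase, had 2959, 2584 and 2731 CPM in the duodenum and 2069, 1726 and 1951 CPM in the ileum. Its groups did not overlap, but the difference did not pass the test (edgeR adjusted p = 0.536).

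Fat genes were uneven in how firmly they were called. Of 17 genes for fat absorption and chylomicrons, 5 were called toward the duodenum and 0 toward the ileum, with a median log2 difference of -0.51, but 1 was called without duodenum sample 1. That 1 was Apoc2, the activator of lipoprotein lipase, at 1768, 1407 and 1566 CPM in the duodenum and 514, 421 and 392 CPM in the ileum (3.57-fold, edgeR adjusted p = 0.000123). Apoc3, a lipoprotein lipase inhibitor, had 603, 528 and 532 CPM in the duodenum and 276, 267 and 205 CPM in the ileum (edgeR adjusted p = 0.0345). Its call was lost without any 1 of the 6 samples (edgeR adjusted p = 0.0616 to 0.115). For both apolipoproteins all duodenum samples exceeded all ileum samples, and the shift in Apoc3 kept its size without sample 1 (log2 -1.15 and -1.09).

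Of 17 genes for fatty acid oxidation and ketogenesis, 9 were called toward the duodenum and 2 toward the ileum, with a median log2 difference of -0.51, and 7 and 1 were called without duodenum sample 1. Besides Cyp4a10 they included Pdk4, the kinase that turns pyruvate dehydrogenase off, at 122, 89.8 and 113 CPM in the duodenum and 30.9, 17.7 and 29.0 CPM in the ileum (4.18-fold, edgeR adjusted p = 0.00344). The regions did not overlap for Pdk4. Ppara, the receptor that drives this program in fasting tissue, was higher in the ileum at 24.1, 20.3 and 19.2 CPM against 12.9, 12.04 and 15.6 CPM (edgeR adjusted p = 0.0184). That call was lost without each sample but duodenum 3 (edgeR adjusted p up to 0.151). Vnn1, a pantetheinase, was also higher there (3.00-fold, edgeR adjusted p = 6.27e-05).

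**Figure D4:**
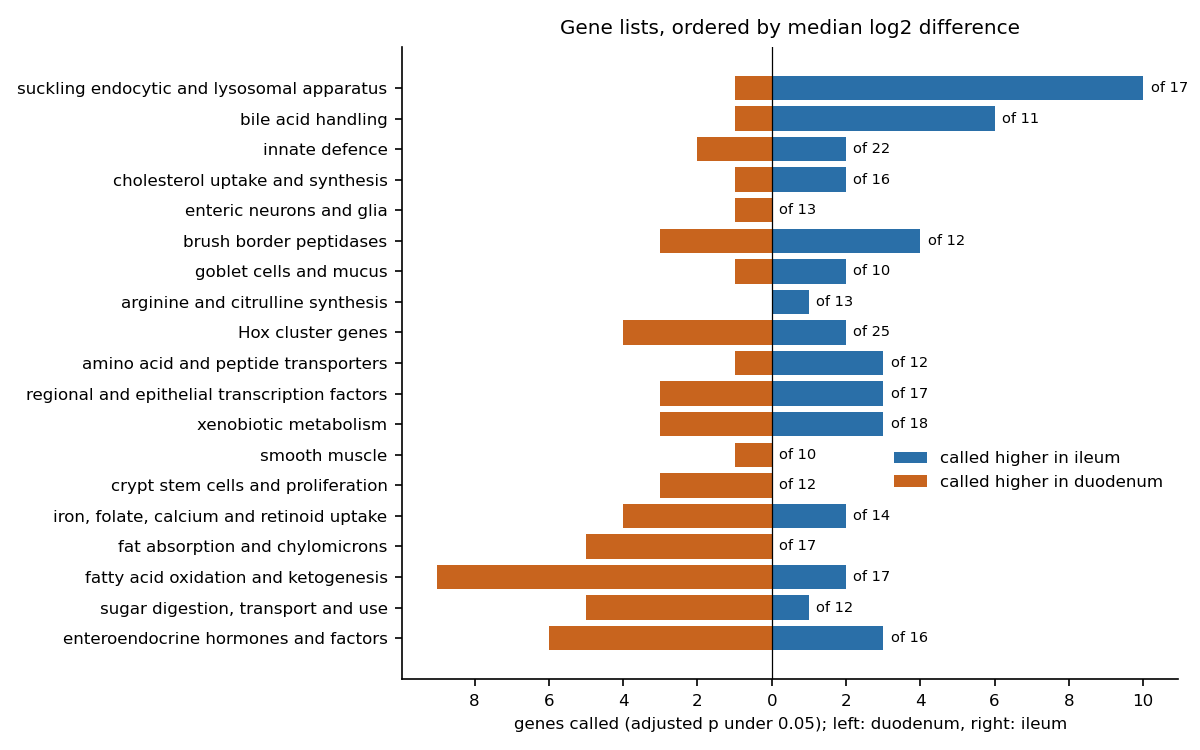
For each pathway or gut cell type list, with the lists of other tissues such as the pancreas left out, the number of members called higher in the ileum (blue, to the right) and higher in the duodenum (orange, to the left), with the number that passed the low-count filter beside each bar. Lists are ordered by median log2 difference, and the longest bars among those drawn are the 10 of 17 genes of protein uptake toward the ileum and the 9 of 17 genes of fatty acid oxidation toward the duodenum.

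Of 14 genes for the uptake of iron, folate, calcium and retinoids, 4 were called toward the duodenum and 2 toward the ileum. Without duodenum sample 1 there was 1 in each direction. Slc46a1, the proton-coupled folate transporter, held its call, at 69.0, 44.2 and 53.3 CPM in the duodenum and 12.9, 15.1 and 12.1 CPM in the ileum (4.15-fold, edgeR adjusted p = 9.49e-05). Trpv6, the apical calcium channel, was low in both regions, at 2.12, 1.24 and 1.36 CPM in the duodenum and 0.420, 0 and 0.0396 CPM in the ileum, and was called (edgeR adjusted p = 0.0482) but not without any 1 sample other than ileum 1 (up to 0.174). Atp2b1, a calcium pump of the basolateral membrane, was 1.48-fold higher in the ileum, a call that was lost without each sample but duodenum 1 (edgeR adjusted p up to 0.139). Isx, the homeobox repressor of vitamin A uptake, was 1.28-fold higher in the ileum, also with a call (edgeR adjusted p = 0.0418) that was lost without any 1 of the 6 samples (0.143 to 0.25).

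Of 16 cholesterol genes, 2 were called toward the ileum and 1 toward the duodenum, beside 13.4% called over all genes tested. Sqle, an enzyme of sterol synthesis, was 1.90-fold higher in the ileum, a call lost without duodenum 2, duodenum 3, ileum 2 or ileum 3 (edgeR adjusted p up to 0.163). Scarb1, a lipoprotein receptor, was 2.05-fold higher in the duodenum. Of 13 genes of arginine and citrulline synthesis, 1 was called (1 in each direction with the replicate block), Asl, argininosuccinate lyase, at 57.4, 59.0 and 55.0 CPM in the duodenum and 105, 119.8 and 111 CPM in the ileum (1.96-fold, edgeR adjusted p = 8.13e-05).

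Factors that pattern the gut were called in both directions. Of 17 transcription factors that passed the filter of 20 listed, 3 were called toward each region, with a median log2 difference of -0.04. Onecut2, a duodenal cut-homeobox factor, had 368, 315 and 307 CPM in the duodenum and 37.7, 8.81 and 22.6 CPM in the ileum (14.3-fold, log2 -3.84, SE 0.82, edgeR adjusted p = 0.00172). Gata4, a zinc-finger factor of the proximal gut, had 112, 117 and 112 CPM in the duodenum and 67.1, 53.2 and 59.2 CPM in the ileum (1.90-fold, edgeR adjusted p = 0.0353, and 0.0747 without duodenum sample 1). The step in Gata4 was thus much shallower than that of Pdx1 or Onecut2. Osr2, a zinc-finger factor, was 3.18-fold higher and Prdm1, the repressor of mature enterocyte genes in the suckling gut, 1.81-fold higher in the ileum. Cdx2, which maintains intestinal identity, had 95.7, 93.2 and 98.8 CPM in the duodenum and 102, 108 and 99.2 CPM in the ileum (edgeR adjusted p = 0.684).

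The Hox genes, whose order along each chromosome cluster follows the body axis, were low, and 25 of 39 passed the filter. Of these, 2 were called toward the ileum and 4 toward the duodenum, beside 7.62% and 5.81% of all genes tested. Hoxc8 had 4 reads in the duodenum in all and 1.10, 2.28 and 0.910 CPM in the ileum (edgeR adjusted p = 2.39e-05). Hoxa4 had 1.24, 1.28 and 1.70 CPM in the duodenum and 0.452, 0.626 and 0.277 CPM in the ileum (3.12-fold, edgeR adjusted p = 0.00503). Without duodenum sample 1 the counts were 1 and 2. The calls of Hoxd4 (ileum, edgeR adjusted p = 0.0485) and Hoxb2 (duodenum, edgeR adjusted p = 0.0465) were lost with the replicate block, without any 1 of the 6 samples for Hoxd4 (edgeR adjusted p = 0.0589 to 0.192), and without each sample but ileum 2 for Hoxb2 (up to 0.172).

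Hormone genes of enteroendocrine cells were called toward both ends. Of 16, 6 were called toward the duodenum and 3 toward the ileum, with a median log2 difference of -0.65. Cck, which encodes cholecystokinin, the hormone of gallbladder contraction, had 41.2, 30.5 and 27.6 CPM in the duodenum and 8.82, 5.45 and 3.64 CPM in the ileum (5.50-fold, edgeR adjusted p = 4.31e-06). Gcg, the precursor of the glucagon-like peptides, had 5.99, 7.59 and 6.997 CPM in the duodenum and 29.3, 31.8 and 24.8 CPM in the ileum (4.17-fold, edgeR adjusted p = 1.23e-07). Neither gene overlapped between regions. Nts, neurotensin, was 3.12-fold higher in the ileum, at 169.6, 194 and 126 CPM against 55.2, 58.3 and 43.5 CPM. Insl5, known as a hormone of the adult colon, was 9.81-fold higher in the duodenum, at 3.59, 2.56 and 3.00 CPM against 0.291, 0.358 and 0.277 CPM (edgeR adjusted p = 0.000223).

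Other genes known from the large bowel lay on the same side as Insl5. Of the 3 caecum and colon markers that passed the filter, 2 were called higher in the duodenum. Aqp8, a water channel, had 98.1, 68.9 and 86.0 CPM in the duodenum and 7.94, 4.02 and 5.38 CPM in the ileum (14.5-fold, edgeR adjusted p = 3e-07). Slc37a2, a sugar phosphate exchanger, had 118, 98.2 and 101 CPM in the duodenum and 15.8, 11.9 and 14.01 CPM in the ileum (7.58-fold, edgeR adjusted p = 0.000244). Car1, the carbonic anhydrase that defines colonic epithelium, was at 0.0396 CPM or less in all 6 samples, and 3 of the 6 listed genes had no read at day 2.

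Goblet and crypt genes differed in part. Of 10 goblet genes, 2 were called toward the ileum and 1, Zg16, toward the duodenum, beside 7.62% and 5.81% of all genes tested. Without duodenum sample 1 the count in the ileum was 3. Muc2, the gel-forming mucin, had 386, 247 and 267 CPM in the duodenum and 909, 913 and 851 CPM in the ileum (2.97-fold, edgeR adjusted p = 0.000512), and Agr2, which folds mucins, was 1.66-fold higher there, a call lost without duodenum 3 or ileum 2 (edgeR adjusted p up to 0.0654). Zg16, of the same list, had the opposite difference, and which cells made its RNA here was not tested. It was highest in duodenum sample 1, and its call held without that sample (log2 -3.78, edgeR adjusted p = 6.73e-06). Of 12 crypt and proliferation genes, 3 were called toward the duodenum and 0 toward the ileum. Olfm4, a crypt marker, had 663, 941 and 791 CPM in the duodenum and 297, 290.0 and 398 CPM in the ileum (2.43-fold, edgeR adjusted p = 0.000151). Ascl2, the stem cell transcription factor, was 2.22-fold higher in the duodenum, while Lgr5, the stem cell receptor, had 24.8, 25.9 and 28.5 CPM against 17.4, 18.3 and 26.5 CPM and overlapped between regions (edgeR adjusted p = 0.372).

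Of 22 genes of innate defence, 2 were called in each direction, near the 7.62% and 5.81% of all genes. Reg1, a secreted C-type lectin also made by the pancreas, had 33.0, 18.4 and 21.0 CPM in the duodenum and 0.549, 0.134 and 0.277 CPM in the ileum. Its duodenum samples 2 and 3 were as clearly above the ileum as sample 1, and its call held without sample 1 (edgeR adjusted p = 0.00701 and 0.0200). Pigr, the receptor that carries IgA to the lumen, had 477, 466 and 485 CPM in the duodenum and 118, 71.3 and 116 CPM in the ileum (4.68-fold, edgeR adjusted p = 9.29e-06). Reg3b, an antibacterial lectin, had 4.74, 10.6 and 5.93 CPM in the duodenum and 35.0, 20.4 and 16.3 CPM in the ileum. It was called (edgeR adjusted p = 0.0326) but not with the replicate block (0.0626) or without duodenum 1 (0.136), duodenum 3, ileum 1 or ileum 2 (up to 0.167). With the block, or without duodenum sample 1, 1 gene of the list was thus called toward the ileum. Mmp7, the protease that activates defensins, was 1.86-fold higher in the ileum, a call lost without duodenum 2, duodenum 3, ileum 1 or ileum 2 (edgeR adjusted p up to 0.195).

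Of 18 genes of xenobiotic metabolism, 3 were called in each direction, beside 7.62% (ileum) and 5.81% (duodenum) of all genes tested. Abcb1a, the drug efflux pump P-glycoprotein, had 52.0, 63.5 and 55.8 CPM in the duodenum and 209.8, 192 and 197 CPM in the ileum (3.49-fold, edgeR adjusted p = 5.69e-07). Ugt2b34, a glucuronyl transferase, was 2.48-fold higher in the ileum (edgeR adjusted p = 8.01e-07). Cyp2c65, a cytochrome P450, had 67.2, 50.8 and 59.1 CPM in the duodenum and 12.9, 7.38 and 11.5 CPM in the ileum (5.54-fold, edgeR adjusted p = 8.55e-05), and Cyp3a25 was 5.92-fold higher there. Samples did not overlap for any of these genes, as for all but 40 of the 2903 called genes. All except Abcb1a belong to large families, and reads may be split among their members.

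The lists of the deeper wall and of blood had shares of called genes below the 13.4% of all genes tested. Of 10 smooth muscle genes 1 was called higher in the duodenum, Synpo2, an actin-binding protein, and 3 were with the replicate block. Synpo2 (edgeR adjusted p = 0.026) lost its call without duodenum 1 (0.0747), duodenum 2, ileum 2 or ileum 3 (up to 0.126). The 6 fibroblast genes, 10 lymphoid genes, 5 mesothelial genes, 4 fat cell genes and 3 milk-cell genes that passed the filter gave 0 calls, and 1 lymphoid gene was called with the replicate block. Ileum sample 2 held the most fibroblast marker RNA, with a summed level of 203 CPM where ileum samples 1 and 3 had 93.9 and 94.4 CPM. Among 13 genes of enteric neurons and glia, S100b, a calcium-binding protein of glia, was the 1 call, at 15.6, 13.3 and 12.2 CPM in the duodenum and 1.19, 0.894 and 0.910 CPM in the ileum (13.6-fold, edgeR adjusted p = 5.13e-08). Sox10, a transcription factor of glia, had 0.565, 0.0609 and 0.355 CPM in the duodenum and 0.161, 0.358 and 0 CPM in the ileum, and was not called (edgeR adjusted p = 0.505).

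Red blood cell genes summed to 127, 155 and 322 CPM in the duodenum and 87.9, 69.2 and 86.9 CPM in the ileum, so the duodenum held more, and sample 3 the most. Of the 8 that passed, 1 was called, Hemgn, a nuclear protein of red cell precursors (4.23-fold higher in the duodenum, edgeR adjusted p = 0.000296). Without duodenum sample 1, 2 were called. Of 4 islet genes 1 was called higher in the duodenum, Ins1, with 0 without duodenum sample 1 and 2 with the replicate block. The islet sum was 8.95 CPM in that sample against 0.966 to 1.296 CPM in the other 5.

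The regional difference at day 2 was set against that at birth and at day 8 by testing the difference between differences. Against day 0 it was different at 345 of 21617 genes, or 1.6%, with 244 shifted toward the ileum and 101 toward the duodenum. The share shifted toward the ileum was 70.7%, or 58.5% with RLE size factors, but this balance was not stable. It was 48.1% with no low-count filter, 47.7% without duodenum day 2 sample 3, 44.4% without ileum day 2 sample 2 and 38.4% without ileum day 0 sample 1. Among shifts over 2-fold, 62 were toward the ileum and 78 toward the duodenum. The count was 145 without duodenum day 2 sample 1, 44 to 231 over all single samples left out, lowest without duodenum day 2 sample 3, and 0 in the fit of all 48 samples. Bcl2l15 had the largest shift of the 4 genes with the smallest p, from a regional log2 difference of 2.51 at day 0 to 7.10 at day 2 (difference 4.58, SE 0.67, edgeR adjusted p = 0.00166). Its mean in the ileum was 34.2 CPM at day 0 and 22.8 CPM at day 2, while that in the duodenum was 6.09 CPM at day 0 and 0.167 CPM at day 2. Acss1, which makes acetyl-CoA from acetate in mitochondria, widened from 0.74 to 1.96 (difference 1.22, edgeR adjusted p = 0.00238). Sacm1l, a phosphoinositide phosphatase, moved from -0.33 to 0.73, and Tiparp, an ADP-ribosyltransferase induced by the aryl hydrocarbon receptor, from -0.20 to 0.55 (edgeR adjusted p = 0.0013 and 0.00398).

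Several of the genes with the largest day 2 differences also widened from day 0. Fgb moved from 2.33 to 5.83 and Fga from 2.01 to 4.53 on the log2 scale (edgeR adjusted p = 0.00398 and 0.00456 for the differences). The mean of Fgb was 8.44 CPM at day 0 and 0.395 CPM at day 2 in the duodenum, and 42.1 and 23.7 CPM in the ileum. For Fga these means were 23.2 and 1.35 CPM in the duodenum and 93.5 and 31.9 CPM in the ileum, so both genes had lower means at day 2 in both regions, by more in the duodenum. Lrp2 moved from 0.32 to 3.45 (difference 3.13, edgeR adjusted p = 0.00694), with means of 24.5 and 30.5 CPM at day 0 in duodenum and ileum, and 10.9 and 119.2 CPM at day 2. Cldn8, Scd2, Enpep, Abcb1a and Ugt2b34 widened toward the ileum by 2.95, 2.42, 1.65, 1.27 and 0.93, and Zg16 toward the duodenum, from -1.57 to -4.20. Of these named shifts, those of Scd2, Enpep, Abcb1a, Ugt2b34 and Zg16 lost their call without 8 to 11 of 12 single samples (edgeR adjusted p up to 0.2), and those of the other named genes kept theirs. Of the 10 smooth muscle genes 3 shifted toward the duodenum, and the median regional log2 difference of the list was 1.57 at day 0 and -0.23 at day 2.

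Against day 8 the regional difference was different at 4411 of 21617 genes, or 20.4%. The share shifted toward the ileum was 64.2%, or 52.5% with RLE size factors. It was 45.6% without ileum day 2 sample 3 (2008 genes), 45.8% without duodenum day 8 sample 1 (2140 genes) and 17.8% with all 48 samples (236 genes). Among shifts over 2-fold, 343 were toward the ileum and 1443 toward the duodenum. Fgb, Fga, Lrp2 and Scd2, which had widened from day 0, differed by still more at day 8. Their log2 differences there were 9.22, 7.70, 5.89 and 6.03 (edgeR adjusted p = 0.0452, 0.00423, 0.0114 and 0.0145 for the shifts). The day 8 duodenum means of Fgb and Fga were near 0, at 0.00747 and 0.0358 CPM. Bcl2l15 and Afp were narrower at day 8, at 4.85 and 1.97 (edgeR adjusted p = 0.0264 and 0.00383). The 4 genes with the smallest p were Fendrr, a long noncoding RNA of mesoderm, Pdgfra, a growth factor receptor of fibroblasts, Ednra, an endothelin receptor, and Col18a1, a basement membrane collagen. All 4 were much higher in the ileum at day 8 and not called between the regions at day 2. Pdgfra had 18.6, 20.3 and 27.5 CPM in the duodenum and 21.7, 17.8 and 13.7 CPM in the ileum at day 2, overlapping, but means of 1.00 and 21.3 CPM at day 8 (difference -4.72, SE 0.47, edgeR adjusted p = 3.05e-07). The shifts of Fendrr, Ednra and Col18a1 were -6.23, -4.45 and -3.30. These shifts went with the summed fibroblast markers, a list that holds Pdgfra itself. The sums were 115 to 151 CPM in the duodenum and 93.9 to 203 CPM in the ileum at day 2. At day 8 they were 22.6 to 65.3 CPM and 206 to 433 CPM, and at day 0 106 to 189 CPM and 215 to 313 CPM. Other lists also shifted toward the duodenum against day 8, with 6 of 10 smooth muscle, 9 of 25 Hox and 4 of 13 neuron and glia genes. In these lists 0 shifted toward the ileum. Of 12 crypt genes 5 shifted toward the ileum. Over all 21617 genes tested, 1577 shifted toward the duodenum and 2834 toward the ileum. The part of fibroblast RNA in any of these shifts was not tested.

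**Figure D5:**
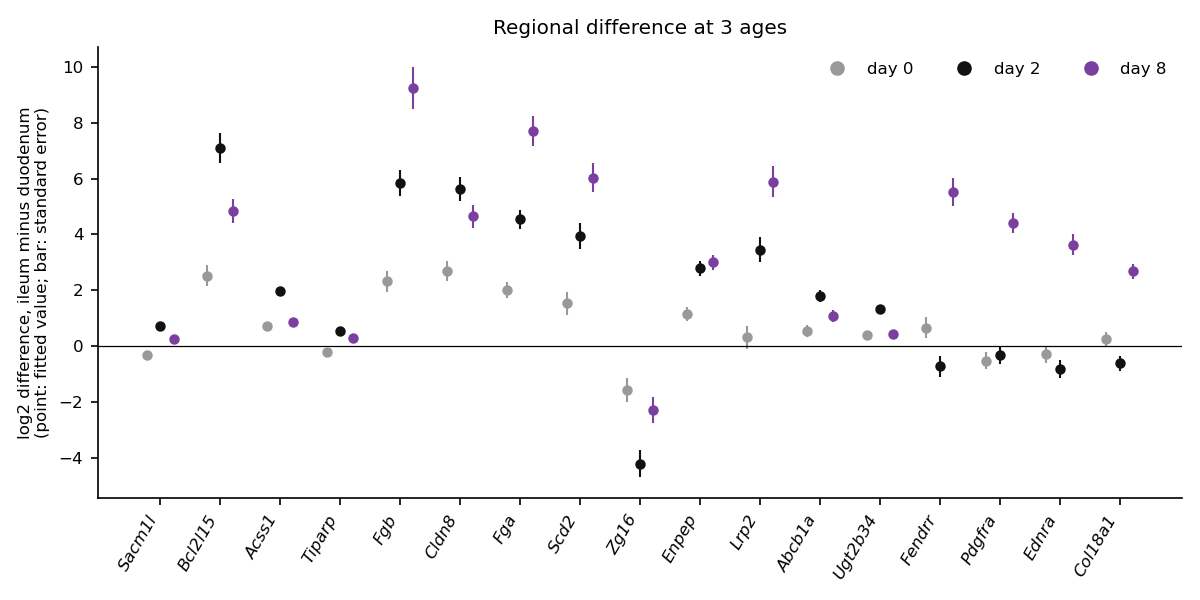
Regional log2 difference (ileum minus duodenum) at day 0 (grey), day 2 (black) and day 8 (purple) for the 17 genes named for a changed regional difference, with points for fitted values and bars for standard errors. Bcl2l15 is widest at day 2 (7.10), while Lrp2 rises from 0.32 at day 0 to 3.45 at day 2 and 5.89 at day 8. The 4 genes on the right lie near or below 0 at day 2 and well above it at day 8.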

How the data were processed

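Whole-tissue total RNA was sequenced, per the labels' protocols. STAR 2.6.1d, Salmon 0.14.2, DESeq2 1.30.1 and the mm10 build are named in the submitters' processing notes, with no roles. The deposited table holds estimated counts per gene for 48 samples, already rounded to whole numbers, which the authors summarised with tximport, per the file name. The authors' deposited normalized tables, a signal equal to the estimated count divided by 1 factor per sample and made separately for each region, served only for gene symbols and to see which samples the authors kept.

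The estimated counts were scaled by TMM and tested with edgeR 4.0.16 (quasi-likelihood, robust) in R 4.3.3, in 1 fit of the 40 samples in 14 groups that the normalized tables also hold. That fit leaves out day 4 and the samples labelled day 6 number 3 of both regions, none of which the normalized tables hold. The samples labelled day 6 number 3 were judged to go against their labels, a judgement for which no values are given here. All other groups share the fit's estimate of spread. Genes passed edgeR's filterByExpr, and 21617 were tested with Benjamini-Hochberg adjustment and a threshold of 0.05. The script was tested on simulated data. SE is the log2 difference divided by the root of F. Gene positions and exon lengths are from GENCODE M21 (mm10). Same-numbered day 2 samples deviated together (correlations 0.252, 0.124 and 0.152 over 12436 genes), so a fit with the replicate number as a block was set beside the results it changes. The p-values given are from the fit without the block unless stated, and the labels do not say what a number stands for. No pair of samples was alike within sampling noise.

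Named were the 10 genes with the largest called difference in each direction whose samples do not overlap (mean log2 CPM of at least 1, no predicted or pancreatic enzyme genes), the called genes with the largest differences per list, at most 2 in each direction, and the 4 smallest p-values per test against another age. Genes named beyond these, such as Fgg, Alb, Lct, Mamdc4 and Gata4, were chosen after their values were seen. The samples, lists and tests were chosen with earlier results of these data known. Counts of list members without duodenum sample 1 and with the replicate block were added after seeing the data. Genes with no read in 1 region left the medians of the lists given in the text unchanged when set to their bounds. Some listed genes are not reported here. Floors cover counting error only.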

Additional observations from a re-analysis of the deposited data

Results flagged for a closer look

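Each result here is a regional difference at day 2 that differed from the same difference at another age by edgeR's test of the difference between differences. Against day 0 there were 345 such genes. Among the named genes the shifts toward the ileum on the log2 scale were 4.58 for Bcl2l15, 3.50 for Fgb, 3.13 for Lrp2, 2.95 for Cldn8, 2.52 for Fga, 2.42 for Scd2, 1.65 for Enpep, 1.27 for Abcb1a, 1.22 for Acss1, 1.05 for Sacm1l, 0.93 for Ugt2b34 and 0.75 for Tiparp. The shift toward the duodenum was -2.63 for Zg16. Against day 8 there were 4411 such genes. For the 4 with the smallest p the shifts were -6.23 for Fendrr, -4.72 for Pdgfra, -4.45 for Ednra and -3.30 for Col18a1. Among the genes with a shift from day 0, those also called against day 8 included Fgb (-3.39), Fga (-3.16), Lrp2 (-2.44), Scd2 (-2.08) and Zg16 (-1.93). Toward the ileum they included Bcl2l15 (2.24), Acss1 (1.12) and Sacm1l (0.46). These further calls against day 8 were not tested with single samples left out.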

How the results depend on the processing

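Called genes at day 2 went from 2903 to 1024 in the fit of all 48 samples as labelled (504 higher in the ileum, 520 in the duodenum; all 1024 were also called in the 40-sample fit) and to 5408 with the 6 samples alone (2731 and 2677). With no low-count filter 988 genes were higher in the ileum, and the share of calls higher in the ileum was 45.8%, against 56.7%; it was 47.8% to 59.0% with single samples left out. Leaving out single samples gave 1578 to 2242 genes, with 815 to 1185 higher in the ileum and 763 to 1069 in the duodenum. The count against day 0 was the least firm: 345 became 200 with RLE size factors, 81 with no filter, 782 with DESeq2 1.42.0 and 0 with all 48 samples (1464 at an unadjusted p under 0.05 in edgeR), and 44 to 231 with single samples left out. Of its calls 70.7% were shifted toward the ileum, 58.5% with RLE, 48.1% with no filter and 38.4% to 70.7% with single samples left out. The count against day 8, 4411, became 2581 with no filter, 236 with all 48 samples and 2008 to 3519 with single samples left out; 64.2% of its calls were shifted toward the ileum, 52.5% with RLE, 17.8% with all 48 samples and 45.6% at the lowest with single samples left out. The cause was not tested. With the replicate block 3263 genes were called at day 2, 470 against day 0 and 4844 against day 8; of the 71 genes named by rule at day 2, Greb1l, Hoxb2, Hoxd4 and Reg3b lost their call and no other did. Of these 71 genes tested at day 2, 51 kept their call in every alternative run, 20 lost it in at least 1 and 0 reversed. Depth limits genes with few reads in 1 region, such as Fabp6, Hoxc8 and Slc6a14.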
